A study of Rattus norvegicus with 6 samples.

Results

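HRAS-transformed FE8 fibroblasts were compared with their immortal parent line 208F while both were exposed to 5-aza-2'-deoxycytidine (decitabine). The comparison was made on the 2 FE8 arrays against the 2 208F arrays whose titles name the drug, 4 of the 6 arrays in all, over every probe set that is not a control of the array. It was the only comparison of the study with 2 arrays on each side. All 4 samples came from cells given 0.3 µM of the drug for 96 h. The remaining arrays, 1 of untreated 208F and 1 of untreated FE8, are given beside the treated values. Expression was measured on the Affymetrix rat genome array U34 (chip A) as MAS5 signals, a linear intensity per probe set, for 4818 probe sets of 2890 named genes.

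RAS proteins are membrane-bound switches that pass growth factor signals to the RAF, MEK and ERK kinases. Oncogenic HRAS stays switched on, and ERK then drives transcription through ETS, serum response and AP-1 factors, among them FOS, FOSL1 and JUN. Fibroblasts transformed in this way are known to round up, to lose actin stress fibres and to replace matrix synthesis with secretion of matrix proteases. Decitabine is built into replicating DNA and traps the DNA methyltransferases, so that methylation is lost at division. Genes silenced by promoter methylation, endogenous retroviral repeats and imprinted or germline genes are classic targets, and repeat transcripts can set off an interferon response.

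The labels call 208F immortal and FE8 transformed by HRAS, without giving the allele, the promoter that drives it or the clonal history, and Hras was not among the named genes. FE8 stands for transformation here as a single line, so any other difference between the lines is part of the contrast. The labels do not say whether the duplicates came from separate cultures, and the p-values below therefore measure a spread that may be technical. RNA came from bulk cultures, in which fewer cells of a kind and less RNA per cell cannot be told apart. The untreated arrays were on chips of lot 1 and shared a scan day that no treated array had. Treated 208F replicate 1 was on lot 2 and had its own scan day, and the other 3 treated arrays shared lot 3 and a scan day. A line difference under the drug without 208F replicate 1 therefore lies within a single lot and scan day. Median signals of the treated arrays lay between 374 and 422, and 7 to 9.7% of probe sets were below a signal of 64. On the untreated arrays the medians were 354 in 208F and 356 in FE8, with 13.3% and 13.5% of probe sets below 64. The ratio of 5' to 3' signal of beta-actin, a sign of RNA quality, was 0.529 and 0.456 in treated 208F and 0.405 and 0.384 in treated FE8, so that it was lower in FE8, and its part in the differences was not tested. The same ratio of Gapdh was 1.132 and 1.01 in treated 208F and 1.126 and 1.073 in treated FE8, which overlap. The untreated lines lay further apart, at 0.824 in 208F and 0.351 in FE8 for beta-actin and 0.916 and 0.691 for Gapdh. The part of RNA quality in the untreated differences was not tested.

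Of 10 fibroblast markers 7 were measured, and their summed signal was 61177 and 52697 in treated 208F and 30657 and 32287 in treated FE8. 3 of the 7 were lower in FE8 and none was higher. Markers of other cell types were few on the table. Skeletal muscle markers summed to 3397 and 3463 in 208F and 1547 and 1495 in FE8, and the 3 epithelial markers to 3458 and 3039 in 208F and 4345 and 4418 in FE8. The sum of the 2 endothelial markers was higher in FE8 (269 and 198 against 516 and 542), with neither past the threshold. Nearly all of it was Flt1 (250 and 195 against 507 and 540), since Kdr was below 64 on all treated arrays. The 3 adipocyte markers, 1 of them higher, summed to 2909 and 2623 against 3314 and 2506, the 3 neuron markers to 520 and 297 against 536 and 221, and the single macrophage and leukocyte marker gave 446 and 322 against 403 and 234. Whether cells of another type had a part in any result was not tested.

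The lines differed at 341 of 4818 probe sets (7.08%) in limma's moderated test with a Benjamini-Hochberg adjusted p under 0.05. FE8 was higher at 165 (3.42%) and lower at 176 (3.65%). The 4 arrays separated by line at 2029 probe sets (42.1%), with both FE8 signals on one side of both 208F signals. FE8 was higher at 995 of them and lower at 1034. All 341 were among the 2029, so separation adds no support to a difference that passed. Differences are given as log2 of FE8 over 208F after adding 64 to each signal, with the standard error of the fit, and 64 holds down the difference of dim genes. The smallest difference that passed was 0.82, a limit that follows from the threshold and the number of arrays. 36 probe sets differed by at least 8-fold, 14 higher and 22 lower, and 33 differed by less than 2-fold. The median absolute difference over all probe sets was 0.247 between the lines, each taken as the mean of 2 arrays. Between single arrays it was 0.304 for the 208F duplicates and 0.272 for the FE8 duplicates. Means of 2 arrays vary less than single arrays, so the line value cannot be set directly against these. At 28 of the 165 higher probe sets both 208F signals were under 64, and at 35 of the 176 lower ones both FE8 signals were.

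**Figure D1:**
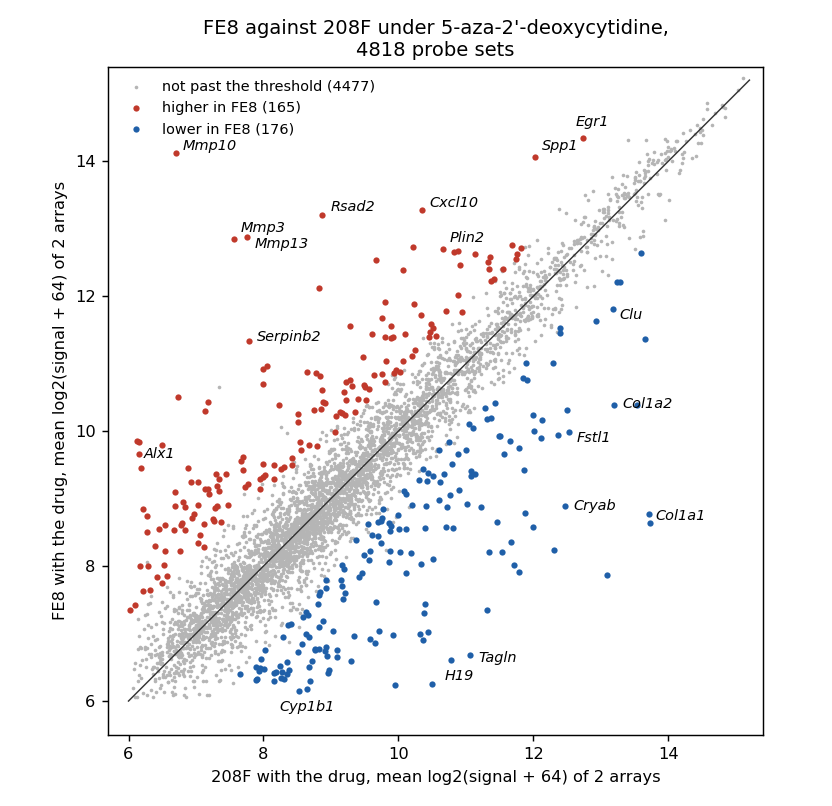
Mean log2(signal + 64) of the 2 treated FE8 arrays against that of the 2 treated 208F arrays for 4818 probe sets, each point a probe set, with the diagonal marking equal signal. The 165 probe sets higher in FE8 (red) and the 176 lower (blue) lie on both sides across the whole range of signals, with Mmp10 farthest above the diagonal and Col1a1 farthest below.

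The rest is ordered by gene groups. A group was counted by the brightest probe set of each measured gene, for which 115 of 2890 genes (3.98%) were higher in FE8, 100 (3.46%) were lower, 215 (7.44%) in all, and the median difference was -0.01. The 4 arrays separated by line for 606 of these genes upward (21.0%) and 656 downward (22.7%). Where pairs of treated signals are set against each other, those of 208F come first. Single genes are given by the probe set with the smallest p, so a value can differ from that used in the count. Where a treated array is left out, the spread of the fit comes from the duplicates of the other line. A count or an adjusted p can therefore change there although the difference itself hardly moves.

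The strongest differences lay in secreted matrix metalloproteinases, the zinc enzymes that cut collagen, proteoglycan and other matrix. Mmp10 (stromelysin-2, probe set M65253_at) had signals of 22 and 63 in treated 208F and 17685 and 17769 in treated FE8, a difference of 7.41 ± 0.25 (adjusted p = 3.6e-08). Mmp3 (stromelysin-1) had 120 and 129 against 7737 and 6887, a difference of 5.29 ± 0.23 (adjusted p = 1.9e-07). Mmp13, a collagenase, had 140 and 164 against 6859 and 8014, a difference of 5.12 ± 0.22 (adjusted p = 1.9e-07). All 3 were dim in 208F and bright in FE8. The untreated signals were 14 and 12849 for Mmp10, 68 and 6573 for Mmp3 and 222 and 14268 for Mmp13, in 208F and FE8, so that the gap was there without the drug.

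The promoters of these 3 genes are shown because each holds the AP-1 heptamer TGANTCA close to its start. They lie in the same gene cluster, at chr8:12974457-12974706, plus strand (Mmp10), chr8:12925031-12925280, plus strand (Mmp3) and chr8:12782579-12782828, plus strand (Mmp13), in RefSeq's GRCr8. The 250 bases before each start are given 5′ to 3′ with the heptamer in capitals.
Mmp10: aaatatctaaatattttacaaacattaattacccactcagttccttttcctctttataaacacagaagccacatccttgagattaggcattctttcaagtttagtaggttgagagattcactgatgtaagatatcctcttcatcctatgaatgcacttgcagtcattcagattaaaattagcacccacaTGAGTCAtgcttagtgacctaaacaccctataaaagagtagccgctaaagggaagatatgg
Mmp3: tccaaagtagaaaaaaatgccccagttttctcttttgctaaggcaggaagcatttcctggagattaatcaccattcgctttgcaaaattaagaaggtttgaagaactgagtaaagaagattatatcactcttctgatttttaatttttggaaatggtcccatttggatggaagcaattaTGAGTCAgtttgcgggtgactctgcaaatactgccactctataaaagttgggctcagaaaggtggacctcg
Mmp13: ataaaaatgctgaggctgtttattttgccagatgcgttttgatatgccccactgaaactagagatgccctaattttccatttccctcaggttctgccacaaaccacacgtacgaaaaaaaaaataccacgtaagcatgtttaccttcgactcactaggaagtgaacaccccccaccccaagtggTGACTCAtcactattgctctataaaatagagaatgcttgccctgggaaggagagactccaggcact
The heptamer began 61 bases before the start in Mmp10, 71 in Mmp3 and 66 in Mmp13. It is its own reverse complement. It was present in the same window of 15 of 98 matched genes that were higher in FE8 (15.3%), of 3 of 81 lower genes (3.7%), of 4.98% of the 2432 measured genes with a promoter in the table and of 6.36% of all 27455 promoters. The other higher genes with it were Serpinb2, Cxcl10, Th, Mal, Cyp3a9, Slfn2, Ddit3, Ifitm3, Lama3, Abcb1a, Lgals9 and Epcam. A match describes the sequence and shows no binding.

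Other members of the family did not follow. Mmp2 (gelatinase A, which digests basement membrane) was lower in FE8, at 1319 and 1234 against 298 and 334 (-1.82 ± 0.26, adjusted p = 0.0011). Mmp23 was at 607 and 453 against 109 and 152 (-1.61 ± 0.32, adjusted p = 0.01). The inhibitor Timp2 was also lower (-1.07 ± 0.23, adjusted p = 0.016). Its relative Timp1 was higher by a dimmer probe set, at 1718 and 1947 against 4179 and 3939 (1.12 ± 0.21, adjusted p = 0.0075), while its brightest probe set (0.88) did not pass. Of 14 measured metalloproteinases, ADAM proteases and TIMPs, 3 were higher and 3 lower, and the median was 0.09. Without FE8 replicate 1 or replicate 2 the count was 3 higher and 1 lower, and without 208F replicate 2 it was 5 higher and 3 lower. Mmp9, the other gelatinase, had 42 and 112 in 208F and 190 and 222 in FE8 and did not pass (adjusted p = 0.15), nor did the macrophage elastase Mmp12 (adjusted p = 0.14).

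The plasminogen system, which activates metalloproteinases and dissolves fibrin, had members higher in FE8 and none lower. Serpinb2, an inhibitor of plasminogen activators, had 124 and 196 in treated 208F and 2221 and 2826 in treated FE8 (3.54 ± 0.28, adjusted p = 2e-05). The tissue activator Plat had 60 and 149 against 406 and 587 (1.77 ± 0.36, adjusted p = 0.011), and the inhibitor Serpine2 had 319 and 545 against 990 and 1716 (1.5 ± 0.33, adjusted p = 0.018). For each of them both FE8 signals were above both 208F signals, as for every higher probe set that passed. The lysosomal proteases Ctsd (1.05 ± 0.26) and Ctsl (0.82 ± 0.21) were higher by smaller steps. Of 12 measured members 4 were higher and none lower, 10 separated by line upward, and the median was 0.73. The count was 1 when either FE8 array was left out. The urokinase Plau had 347 and 356 against 635 and 676 and its receptor Plaur 576 and 515 against 875 and 1031, with adjusted p of 0.16 and 0.12.

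Several genes of fibrillar collagen were far lower in FE8. Col1a1, a chain of type I collagen, had 12811 and 13955 in treated 208F and 474 and 294 in treated FE8 (-4.94 ± 0.25, adjusted p = 4.9e-07), and 3 other probe sets of the gene passed in the same direction. Its partner chain Col1a2 had 11195 and 7773 against 1479 and 1108 (-2.80 ± 0.25, adjusted p = 3.8e-05). Col3a1 had 859 and 569 against 28 and 95 (-2.66 ± 0.34), while its other, dimmer probe set (-0.93 ± 0.33) did not pass. Col5a2 had 3995 and 4001 against 399 and 251 (-3.41 ± 0.24). Lox, the oxidase that cross-links collagen, had 4170 and 3941 against 1060 and 868 (-2.01 ± 0.22, adjusted p = 0.00015). The groups did not overlap for any of these, which held for every probe set past the threshold. Of 16 measured collagens and processing proteins 8 were lower and none higher, with a median of -0.85, and 5 were lower when either FE8 array was left out. The remaining lower ones were Col11a1, the collagen chaperone Serpinh1 (-0.93) and the procollagen enhancer Pcolce (-1.01). The prolyl hydroxylase P4ha1 (0.37 ± 0.35) and Col12a1 (-0.70 ± 0.33) did not pass, nor did the fibrillar chain Col5a1, at 381 and 395 against 240 and 167 (-0.77 ± 0.27, adjusted p = 0.14).

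The collagen differences were also seen on the untreated arrays, with other widths. Between the untreated arrays the difference was -5.58 for Col1a1, -1.43 for Col1a2, -3.49 for Col3a1 and -2.23 for Col5a2. For Col1a2 FE8 signals went from 5073 untreated to 1479 and 1108 treated, and 208F signals from 13772 to 11195 and 7773. The change of the line difference with the drug did not pass for any collagen (smallest adjusted p = 0.065 in the list).

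Among matrix glycoproteins 5 of 17 were lower and 1 was higher, with a median of -0.85. The median was -0.49 with a larger added constant and -0.36 among the 13 genes left at a mean treated signal of at least 200. Fibronectin (Fn1), the main cell-binding matrix protein, had 3229 and 2354 in 208F and 349 and 332 in FE8 (-2.80 ± 0.25, adjusted p = 3.1e-05). Fbln5, needed for elastic fibres, had 1170 and 1492 against 91 and 45 (-3.41 ± 0.28), and the matricellular Ccn1 had 2607 and 3237 against 252 and 212 (-3.33 ± 0.24). Thbs4 stood at 208 and 292 against 15 and 31 (-1.84 ± 0.33), with 10 in untreated 208F and 5 in untreated FE8, near the floor of the array in both. The exception was osteopontin (Spp1), a secreted integrin ligand, at 3069 and 5464 against 17990 and 16260 (2.04 ± 0.28, adjusted p = 0.00086). Without FE8 replicate 1 the count was 3 lower and none higher, and without replicate 2 it was 2 lower and none higher. Sparc, a collagen-binding glycoprotein, gave probe sets that disagreed: by its smallest p it was at 1335 and 1186 against 30 and 88 (-3.47 ± 0.30), while its brightest probe set differed by 0.21.

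Contractile and stress fibre genes were lower as well. Tagln (transgelin) had 2017 and 2129 in treated 208F and 55 and 25 in treated FE8 (-4.38 ± 0.27, adjusted p = 3.5e-06). Smooth muscle actin Acta2 had 1236 and 1184 against 96 and 37 (-3.32 ± 0.29, adjusted p = 2.9e-05), and the myosin light chain Myl9 682 and 801 against 33 and 74 (-2.80 ± 0.30). Cald1, a brake on actomyosin, had 972 and 1246 against 237 and 219 (-2.0 ± 0.28). The LIM protein Csrp2 differed by -2.21 ± 0.31 and the small GTPase Rhob, which acts in stress fibre and endosome traffic, by -2.43 ± 0.27. Of 28 measured actin and contractile genes 8 were lower and none higher, with a median of -0.38, so most of the list did not pass; without 208F replicate 1 the median was -0.22. The untreated 208F signals were 6329 for Tagln, 7043 for Acta2 and 3717 for Myl9, above both treated 208F signals, and the untreated differences of -6.18, -5.37 and -4.39 were the larger ones. For none of the 3 did the change pass (adjusted p = 0.19, 0.17 and 0.32).

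**Figure D2:**
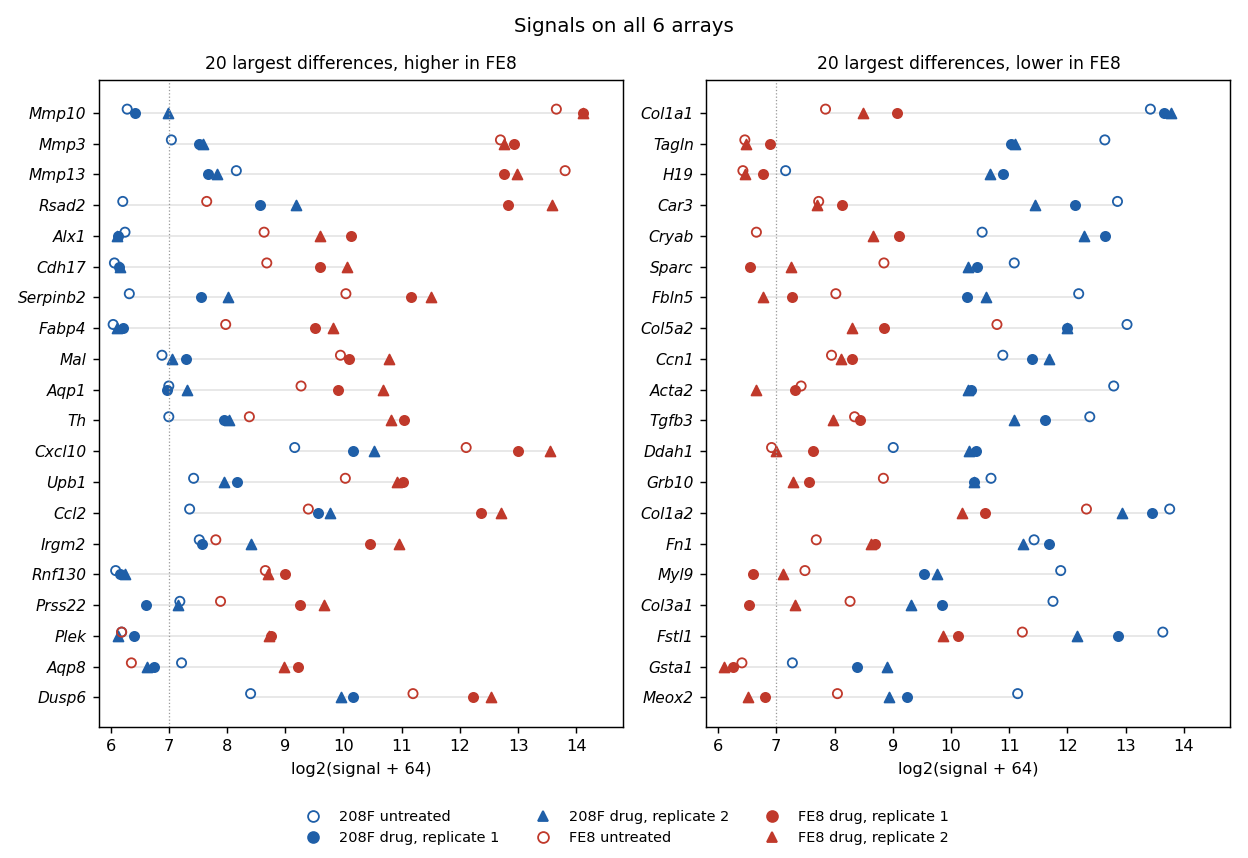
Signals of the 20 genes most higher (left) and the 20 most lower (right) in FE8 under the drug, as log2(signal + 64) on all 6 arrays, blue for 208F and red for FE8, open symbols untreated, filled circles and triangles treated replicates 1 and 2. The filled red and blue symbols do not overlap in any row, by the rule that chose the genes, and the dotted line marks a signal of 64, below which 208F lies for Alx1, Cdh17 and Fabp4.

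TGF-beta signals promote matrix and contractile gene expression in fibroblasts, and 4 of 22 measured factors, antagonists and receptors of this family were lower in FE8 with none higher. The ligand Tgfb3 had 3071 and 2094 against 283 and 186 (-3.14 ± 0.27, adjusted p = 2.9e-05). The activin antagonist Fst had 1825 and 2422 against 658 and 508 (-1.75 ± 0.27), and its relative Fstl1 had 7426 and 4551 against 1047 and 862 (-2.54 ± 0.26). Ltbp2, a protein of elastic fibres that was counted in this list, differed by -1.47 ± 0.31 (adjusted p = 0.013). The list median was -0.27, and 3 and 2 were lower without FE8 replicates 1 and 2. Among growth factors and their binding proteins 3 of 31 were lower and 1 was higher, with 1 lower and none higher when either FE8 array was left out. The lower ones included Gas6, the ligand of the AXL receptor, at 1978 and 1504 against 332 and 295 (-2.25 ± 0.26). The other probe set of Gas6 had 1452 and 926 against 935 and 553 (-0.64 ± 0.30) and did not pass. Igfbp2, which binds insulin-like growth factors, had 429 and 421 in 208F and 26 and 51 in FE8 (-2.26 ± 0.32), against 14 and 41 untreated, near the floor in both lines.

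Targets and feedback regulators of ERK were higher in FE8. The phosphatase Dusp6, which switches ERK off, had 1082 and 930 in 208F and 4735 and 5857 in FE8 (2.32 ± 0.23, adjusted p = 6.6e-05), and the nuclear ERK phosphatase Dusp5 had 840 and 762 against 3032 and 3375 (1.92 ± 0.22, adjusted p = 0.00024). Fosl1, the AP-1 subunit most tied to sustained ERK activity, had 285 and 489 against 1706 and 1890 (2.08 ± 0.27). Tgfa, an EGF receptor ligand, had 63 and 129 against 504 and 706 (2.08 ± 0.33), and the hyaluronan receptor Cd44 had 821 and 959 against 2512 and 3454 (1.66 ± 0.24). The arrays of the lines did not overlap for any of them, as for all differences that passed. Of 20 measured genes 8 were higher, none lower, and 15 separated upward, with a median of 0.64. The count was 4 without FE8 replicate 1 and 1 without FE8 replicate 2. Dusp1, another phosphatase of the family, pointed down (-0.84 ± 0.26, adjusted p = 0.093).

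Immediate early transcription factors, switched on within minutes of growth factor signals, included 2 with high signals in treated FE8. Egr1 had 7747 and 5821 in treated 208F and 21256 and 20151 in treated FE8 (1.61 ± 0.24, adjusted p = 0.0013). Without the drug its signals were 3571 in 208F and 2798 in FE8. Egr2 likewise had 59 and 75 against 576 and 507 (2.21 ± 0.31, adjusted p = 0.00093) and 50 and 94 untreated. On the untreated arrays both differed by under 1 on the log2 scale (-0.34 and 0.47), but the change did not pass for any member of the list (smallest adjusted p = 0.089). Of 17 measured factors 3 were higher, 5 without 208F replicate 2, 2 without FE8 replicate 1 and 1 without FE8 replicate 2. Jun (0.99 ± 0.27, adjusted p = 0.052) and Myc (0.60 ± 0.28, adjusted p = 0.30) did not pass. The Egr2 promoter (chr20:21054442-21054691, minus strand) is shown for its CArG box, the serum response factor motif, in capitals 83 bases before the start.
Egr2: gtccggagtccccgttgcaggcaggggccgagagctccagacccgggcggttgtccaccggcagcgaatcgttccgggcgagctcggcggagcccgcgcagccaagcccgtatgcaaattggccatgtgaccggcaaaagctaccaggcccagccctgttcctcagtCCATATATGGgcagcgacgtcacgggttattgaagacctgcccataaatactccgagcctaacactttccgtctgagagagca
A CArG box, searched on both strands, was in this window of 4 higher genes (4.08%, Dusp5, Egr2, Egr1 and Abcc2), of 1 lower gene (1.23%, the skeletal actin Acta1) and of 1.81% of measured genes. It lay in 1.5% of all promoters.

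Interferon-induced genes, the antiviral programme run by STAT and IRF factors, were higher in FE8 for 8 of 15 measured members. Rsad2 (viperin, which blocks virus replication) had 313 and 520 in treated 208F and 7218 and 12230 in treated FE8, a difference of 4.33 ± 0.31 (adjusted p = 1e-05). Untreated, it was at 10 in 208F and 137 in FE8. Irf7, the factor that amplifies type I interferon, had 770 and 890 against 2497 and 5724 (2.11 ± 0.34, adjusted p = 0.0024), with 330 and 346 untreated. The chemokine Cxcl10 had 1078 and 1416 against 8112 and 11840 (2.92 ± 0.25, adjusted p = 2.9e-05), and 509 and 4348 untreated. Both Rsad2 and Irf7 had all untreated signals below every treated one, while Cxcl10 already stood apart between the untreated lines (2.94).

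None of the 15 was lower under the drug, and the median was 1.14 against 0.04 between the untreated arrays. The others higher were the antiviral GTPases Mx1 (1.42 ± 0.35) and Mx2 (1.87 ± 0.48), the membrane protein Ifitm3 (1.5 ± 0.28), the oligoadenylate synthetase Oas1a (1.12 ± 0.28) and the galectin Lgals9 (1.14 ± 0.29). Stat2 (1.04 ± 0.29, adjusted p = 0.052), Gbp2 (1.34 ± 0.45, adjusted p = 0.12) and Adar (0.67 ± 0.30, adjusted p = 0.27) did not pass, nor did Irf1 (-0.07 ± 0.32). The change of the line difference with the drug passed for none of the 15 (for Rsad2 2.89 ± 0.54, adjusted p = 0.055). Irgm2, an interferon-induced GTPase outside the list, was also high in treated FE8, with 127 and 278 in 208F and 1337 and 1917 in FE8 (2.70 ± 0.34, adjusted p = 0.00048), and 120 and 160 untreated.

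The FE8 duplicates differed in this group. FE8 replicate 2 was above replicate 1 for 14 of the 15 genes, with a median gap of 0.65, while over all genes replicate 2 was above for 41.6% with a median of -0.08. In 208F replicate 2 was above replicate 1 for 11 of 15, with a median of 0.20. The count of 8 became 4 without FE8 replicate 1 and 2 without FE8 replicate 2, 7 without 208F replicate 1 and 8 without 208F replicate 2. Rsad2 and Cxcl10 passed in each of these. Irf7, Ifitm3 and Irgm2 did not pass without FE8 replicate 2, where Irgm2 stood at 2.45 (adjusted p = 0.053), and Mx1 and Mx2 did not pass when either FE8 array was left out.

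**Figure D3:**
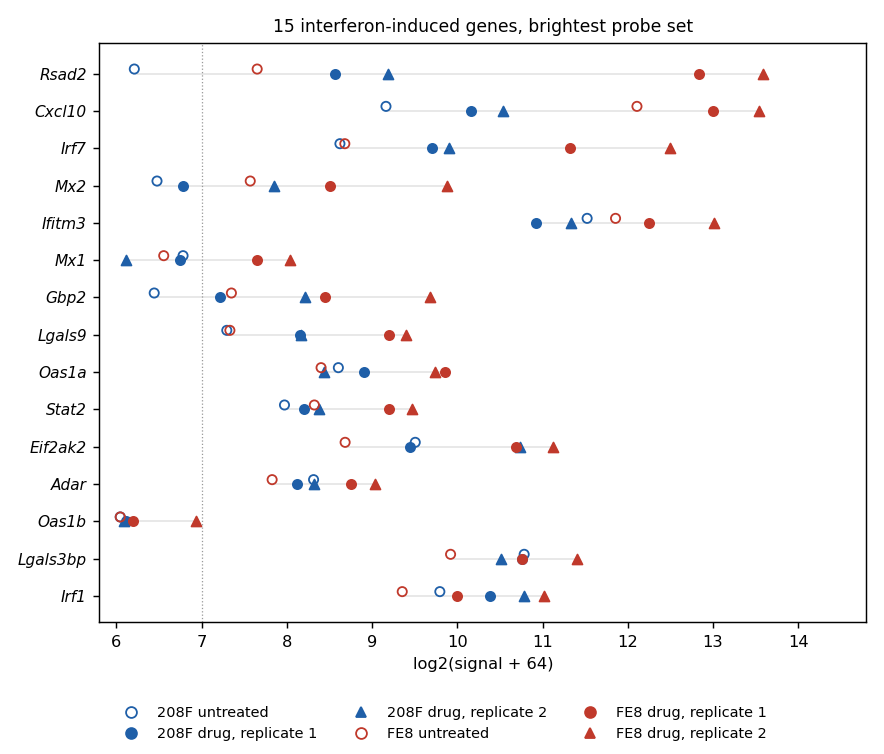
The 15 measured interferon-induced genes by their brightest probe set, as log2(signal + 64) on all 6 arrays, with colours for the lines (208F blue, FE8 red), open symbols untreated and filled circles and triangles for treated replicates 1 and 2. The FE8 triangle lies to the right of the FE8 circle for 14 of 15 genes, and both lie to the right of the 208F duplicates for 12.

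Promoters of 3 of these genes are shown for the core of the interferon-stimulated response element, GAAANNGAAA or, on the other strand, TTTCNNTTTC, in capitals. They are Rsad2 (chr6:48788121-48788370, minus strand), Irf7 (chr1:205800024-205800273, minus strand) and Cxcl10 (chr14:15988816-15989065, plus strand).
Rsad2: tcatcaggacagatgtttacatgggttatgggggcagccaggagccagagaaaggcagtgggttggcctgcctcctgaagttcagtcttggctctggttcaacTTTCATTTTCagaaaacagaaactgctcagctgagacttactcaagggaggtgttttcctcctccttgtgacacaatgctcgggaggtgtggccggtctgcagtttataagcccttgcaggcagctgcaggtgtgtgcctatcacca
Irf7: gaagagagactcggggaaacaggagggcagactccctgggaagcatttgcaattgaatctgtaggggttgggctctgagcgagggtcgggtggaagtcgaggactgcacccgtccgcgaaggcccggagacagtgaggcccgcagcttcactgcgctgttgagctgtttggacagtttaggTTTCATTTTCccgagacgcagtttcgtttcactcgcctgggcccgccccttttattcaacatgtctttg
Cxcl10: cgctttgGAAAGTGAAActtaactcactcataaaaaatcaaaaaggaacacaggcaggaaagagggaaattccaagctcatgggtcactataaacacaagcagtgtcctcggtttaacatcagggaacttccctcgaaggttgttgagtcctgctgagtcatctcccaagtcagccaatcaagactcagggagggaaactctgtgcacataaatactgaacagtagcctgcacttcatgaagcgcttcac
The match began 147 bases before the start in Rsad2, 69 in Irf7 and 243 in Cxcl10. Such a match was in 13 of 98 higher genes (13.3%), 1 of 81 lower genes (1.23%, Slc1a3 by its smallest p, whose probe sets disagree in direction), 3.21% of measured genes and 3.29% of all promoters. Besides the 3 shown these were Mmp13, Serpinb2, Irgm2, Ifitm3, RT1-S3, Tap1, Oas1a, Cd48, Lgals9 and Psme2. 5 genes held both this and the AP-1 heptamer, and in 0 of the 5 did the matches overlap. The median ratio of observed to expected CpG in the window was 0.58 for higher genes, 0.66 for lower genes and 0.75 for all measured genes.

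Antigen presentation genes, many of them interferon targets, pointed the same way with fewer passing. Psmb8, the immunoproteasome subunit, had 686 and 545 against 1303 and 1429 (1.08 ± 0.25, adjusted p = 0.026), although the untreated signals were 29 and 999, a wider gap of 3.51. The proteasome activator Psme2 differed by 0.91 ± 0.24 (adjusted p = 0.042). The peptide transporter Tap1 (1.25 ± 0.28) and the class I gene RT1-S3 (14 and 48 against 181 and 554, 2.06 ± 0.44) passed by a dimmer probe set, not by their brightest. Of 14 measured members 2 were higher, none lower, and 11 separated upward, with a median of 0.69, with 6 higher when either 208F array was left out and none when either FE8 array was. The class I light chain B2m had 2630 and 3161 against 4486 and 6362 (0.88 ± 0.24, adjusted p = 0.054). Class I genes are near copies of each other, and their probe sets may share transcripts.

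Among 18 cytokines, chemokines and receptors 2 were higher and none lower, with a median of 0.42. The monocyte chemoattractant Ccl2 had 691 and 810 in 208F and 5194 and 6623 in FE8 (2.87 ± 0.24, adjusted p = 2.4e-05). Ccl4 had 96 and 67 against 338 and 728 (1.96 ± 0.38, adjusted p = 0.0078). Both kept the lines apart on all 4 arrays, as did every difference that passed, which adds no support. The calls in the list depended on which array was left out. The list median was 0.58 without 208F replicate 2 and 0.47 without FE8 replicate 2. Ccl2 was brighter on treated than on untreated arrays in both lines, with 100 and 610 untreated. The complement protease C1s was also higher (1.92 ± 0.38, adjusted p = 0.0086), 1 of 7 complement genes.

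Genes of fatty acid binding and storage differed in both directions, 5 higher and 2 lower of 26, with a median of 0.11. Fabp4, the adipocyte fatty acid carrier, had 10 and 5 in 208F and 662 and 841 in FE8 (3.50 ± 0.32, adjusted p = 3.8e-05). Plin2, which coats lipid droplets, had 1568 and 1551 against 6483 and 6738 (2.04 ± 0.22, adjusted p = 0.00015). Its untreated signals were 96 in 208F and 38 in FE8. The line difference of Plin2 moved up by 2.69 ± 0.39 from untreated to treated arrays (adjusted p = 0.038, and 0.45 and 0.48 without FE8 replicates 1 and 2). Fabp5 had 928 and 1142 against 2493 and 2977 (1.35 ± 0.25) and untreated signals of 125 and 8, and its change did not pass. The acyl-CoA synthetases Acsl4 (1.74 ± 0.26) and Acsl5 (1.39 ± 0.23) were higher with and without the drug. The muscle carrier Fabp3 was lower, at 479 and 482 against 60 and 31 (-2.33 ± 0.32), as was the retinoid carrier Crabp1 (-1.52 ± 0.24). The list count was 2 higher and 1 lower when either FE8 array was left out.

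The 14 measured genes of cholesterol synthesis and uptake had a median line difference of 0.97 without the drug and -0.12 with it, and 0 passed with the drug. Idi1, an isomerase of the pathway, had 1139 and 3065 untreated, in 208F and FE8, and 456 and 616 against 318 and 270 treated (-0.74 ± 0.26, adjusted p = 0.14). Msmo1, a sterol oxidase, had 1832 and 6101 untreated and 460 and 613 against 734 and 907 treated (0.56 ± 0.24, adjusted p = 0.25). Chaperones and stress genes of the endoplasmic reticulum had a median of 0.87 untreated and -0.08 treated over 18 genes. No member of either list passed the test of the change (smallest adjusted p = 0.077 and 0.051). The drug cannot be told apart from the chip lot and the scan day.

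Of 16 epithelial genes 7 were higher and 1 was lower in FE8. Cdh17, an adhesion molecule of gut epithelium, had 7 and 8 in 208F and 711 and 1008 in FE8 (3.67 ± 0.32, adjusted p = 2.9e-05). Mal, a membrane traffic protein, had 93 and 69 against 1028 and 1687 (3.26 ± 0.31). The water channel Aqp1 had 61 and 95 against 901 and 1566 (3.15 ± 0.33), Aqp8 43 and 35 against 530 and 439 (2.41 ± 0.31) and Aqp3 206 and 235 against 594 and 730 (1.35 ± 0.30). On the untreated arrays Aqp1 was at 64 in 208F and 554 in FE8, while Aqp8 was at 85 and 18. Epcam passed narrowly, at 92 and 45 against 335 and 199 (1.31 ± 0.36, adjusted p = 0.05), and not without 208F replicate 2 or either FE8 array. Keratins did not pass: Krt8 had 3250 and 2825 against 3838 and 4077 (0.38 ± 0.22, adjusted p = 0.48), with 159 and 131 untreated. The tight junction scaffold Tjp1 was lower (-0.93 ± 0.23). The list median was 0.50, and 1.17 among the 11 genes left at a mean treated signal of at least 200, and the count was 4 higher and none lower when either FE8 array was left out.

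Adhesion molecules gave 6 higher and 1 lower of 27, a median of 0.10, and 3 higher without FE8 replicate 1 and 1 without FE8 replicate 2. The tetraspanin Cd9, which organises integrins in the membrane, had 221 and 253 in 208F and 1018 and 1584 in FE8 (2.15 ± 0.32, adjusted p = 0.0014), with 12 and 18 untreated. Itgb4, the laminin receptor chain of hemidesmosomes, had 182 and 321 against 631 and 630 (1.17 ± 0.31, adjusted p = 0.044). The laminin receptor chain of muscle, Itga7, was lower, at 3649 and 2699 against 1028 and 727 (-1.79 ± 0.25, adjusted p = 0.001).

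Muscle genes were lower in FE8 for 4 of 18 and higher for 1, with a median of -0.62. Myod1, the master regulator of skeletal muscle, had 1302 and 1147 in 208F and 206 and 188 in FE8 (-2.30 ± 0.28, adjusted p = 0.00039), and 260 and 12 untreated. The muscle stress protein Ankrd1 had 5604 and 4843 against 1360 and 614 (-2.42 ± 0.31), and the skeletal actin Acta1 192 and 199 against 65 and 27 (-1.26 ± 0.33). Desmin (Des) had 553 and 1241 against 141 and 383 and did not pass (adjusted p = 0.061), with untreated signals of 25 and 14. Nppb, a natriuretic peptide of the heart, was higher, at 127 and 161 against 690 and 565 (1.73 ± 0.31). The count was 2 lower and none higher when either FE8 array was left out, and with a larger added constant the median was -0.30.

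Imprinted genes are marked by methylation of the parental copies. H19, a maternally expressed non-coding RNA, had 1830 and 1560 in treated 208F and 45 and 24 in treated FE8 (-4.16 ± 0.31, adjusted p = 1e-05). Untreated it was at 79 in 208F and 22 in FE8, and treated 208F had the only signals above 79. The change, -3.43 ± 0.53, did not pass (adjusted p = 0.051). Grb10, an adaptor that restrains insulin signalling, had 1287 and 1277 against 126 and 93 (-2.96 ± 0.26) and was at 1585 and 394 untreated. These were the 2 lower members of 10, with none higher. Igf2, the neighbour and imprinting partner of H19, did not pass by any of its 3 probe sets, the brightest of which had 320 and 232 against 442 and 179 (0.06 ± 0.37, adjusted p = 0.98). The meiotic gene Sycp3, which somatic cells keep silent, had 93 and 529 in 208F and 1056 and 961 in FE8, against 2 and 6 untreated, and the lines did not differ past the threshold (1.81 ± 0.50, adjusted p = 0.056).

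Among neuronal and neuroendocrine genes 3 of 22 were higher and 1 was lower, with a median of -0.01. Th, the rate-limiting enzyme of catecholamine synthesis, had 182 and 199 in 208F and 2048 and 1729 in FE8 (2.94 ± 0.27, adjusted p = 4.3e-05). Ptprn, a granule protein related to tyrosine phosphatases, had 527 and 595 against 3016 and 2888 (2.27 ± 0.23, adjusted p = 8e-05). Its gap was wider without the drug, with 35 and 3277, and the change of -2.80 ± 0.39 passed (adjusted p = 0.038), but not without FE8 replicate 1 (adjusted p = 0.45) or replicate 2 (adjusted p = 0.48). Alx1, a homeobox factor of skeletal and craniofacial mesenchyme that the list also held, had 6 and 5 against 1054 and 706 (3.74 ± 0.33). Synaptic genes such as Snap25 (0.01 ± 0.49) and Syp (-0.06 ± 0.40) did not pass.

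Several of the strongest differences stood outside these groups. Plek (pleckstrin, a protein kinase C substrate of blood cells) was dim in every group but treated FE8, with 21 and 6 in treated 208F, 370 and 360 in treated FE8, and 9 in each untreated line (2.48 ± 0.32, adjusted p = 0.00056). The serine protease Prss22 was also brightest there, with 34 and 78 against 545 and 747, and 82 and 173 untreated (2.57 ± 0.33). Upb1, an enzyme of pyrimidine breakdown, had 225 and 182 against 2014 and 1873 (2.91 ± 0.25). On the lower side the small heat shock protein Cryab had 6365 and 4939 in 208F and 490 and 341 in FE8 (-3.58 ± 0.26, adjusted p = 9.7e-06), the carbonic anhydrase Car3 4394 and 2704 against 217 and 143 (-3.86 ± 0.28) and the homeobox factor Meox2 543 and 424 against 48 and 27 (-2.43 ± 0.30). Clu (clusterin), a secreted chaperone, had 11176 and 7531 against 3799 and 3293 (-1.36 ± 0.25, adjusted p = 0.0057). Cryab and Clu were the 2 lower genes of 19 heat shock proteins and chaperones, with none higher, and 3 higher and 2 lower without 208F replicate 1, and 1 lower and none higher when either FE8 array was left out.

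Of 44 drug-metabolizing enzymes and pumps 6 were higher and 2 lower, with a median of -0.04. The multidrug pump Abcb1b had 1885 and 1830 in treated 208F and 5540 and 5566 in treated FE8 (1.55 ± 0.21, adjusted p = 0.00086), and 135 and 890 untreated. The adjacent Abcb1a was dimmer, at 83 and 17 against 205 and 267 (1.45 ± 0.37, adjusted p = 0.036). Cyp3a9, a steroid-oxidising P450, had 250 and 449 against 1789 and 1836 (2.22 ± 0.28). Cyp1b1, a P450 that activates aryl hydrocarbons, was lower, with 192 and 472 in treated 208F, 11 and 3 in treated FE8, and 50 and 51 untreated (-2.39 ± 0.39, adjusted p = 0.0027). It was not past the threshold when either FE8 array was left out. The list count was 2 higher and none lower without FE8 replicate 1 and 0 without FE8 replicate 2, and 4 higher and none lower without 208F replicate 2. Glutathione and antioxidant enzymes were split, with 2 higher and 3 lower of 36. Their count was 3 and 5 without 208F replicate 1, none and none without FE8 replicate 1, and none higher and 1 lower without FE8 replicate 2. The glutathione transferase Gsta1 had 270 and 412 against 12 and 5 (-2.46 ± 0.33), and the peroxidase Prdx6 3658 and 3902 against 1613 and 1715 (-1.15 ± 0.21).

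Of 17 glycolysis genes 2 were higher, Pfkp, a phosphofructokinase, at 621 and 826 against 2336 and 3136 (1.83 ± 0.25, adjusted p = 0.00083), and the glucose transporter Slc2a1 at 1231 and 2101 against 3079 and 3834 (1.06 ± 0.27, adjusted p = 0.037). That count was 4 without 208F replicate 2, 1 without FE8 replicate 1 and 0 without FE8 replicate 2. Of 63 solute carriers 6 were higher by their brightest probe set, among them the nucleoside transporter Slc29a1, which also carries nucleoside drugs, at 410 and 389 against 1287 and 1156 (1.47 ± 0.24, adjusted p = 0.0027). None of the 63 passed when either FE8 array was left out. Slc1a3, a glutamate transporter, was counted there although its probe sets contradicted each other. X63744_at had 66 and 121 in 208F and 287 and 551 in FE8 (1.58 ± 0.36, adjusted p = 0.021), and S59158_at had 298 and 400 against 56 and 4 (-2.18 ± 0.36, adjusted p = 0.0031), so no direction is given for the gene.

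Other groups held few or no differences at this number of arrays. No member passed by its brightest probe set among 33 genes of replication and division (median -0.19), 41 ribosomal proteins (0.14), 22 proteasome subunits (-0.15) and 7 enzymes of DNA methylation and chromatin (-0.09), and 1 of 53 respiratory chain genes was lower, Cox7a2l (-0.88 ± 0.22), a call that was lost when either FE8 array was left out, after median centring, without the intensity trend and with the replicate number as a block. Without 208F replicate 1 there were 3 ribosomal proteins higher and 2 division genes lower, and without 208F replicate 2 there were 3 ribosomal proteins higher, 1 division gene in each direction and 2 proteasome subunits lower. Dimmer probe sets of the mitotic cyclin Ccnb1 (-1.08 ± 0.27) and of the topoisomerase Top2a (-0.98 ± 0.25) were lower. Dnmt1, the maintenance methyltransferase that the drug traps, had 952 and 829 in 208F and 878 and 973 in FE8 (0.05 ± 0.23, adjusted p = 0.97). Of 12 genes that restrain growth, Btg1 was higher (1.18 ± 0.25) and Gas6 lower, each by 1 of its 2 probe sets. Btg1 did not pass when either FE8 array was left out. Of 7 p53 targets the epoxide hydrolase Ephx1 was lower (-1.32 ± 0.30), though not past the threshold when either FE8 array or 208F replicate 2 was left out, and the CDK inhibitor Cdkn1a had 2685 and 1929 against 1617 and 2172 (-0.27 ± 0.26, adjusted p = 0.76).

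**Figure D4:**
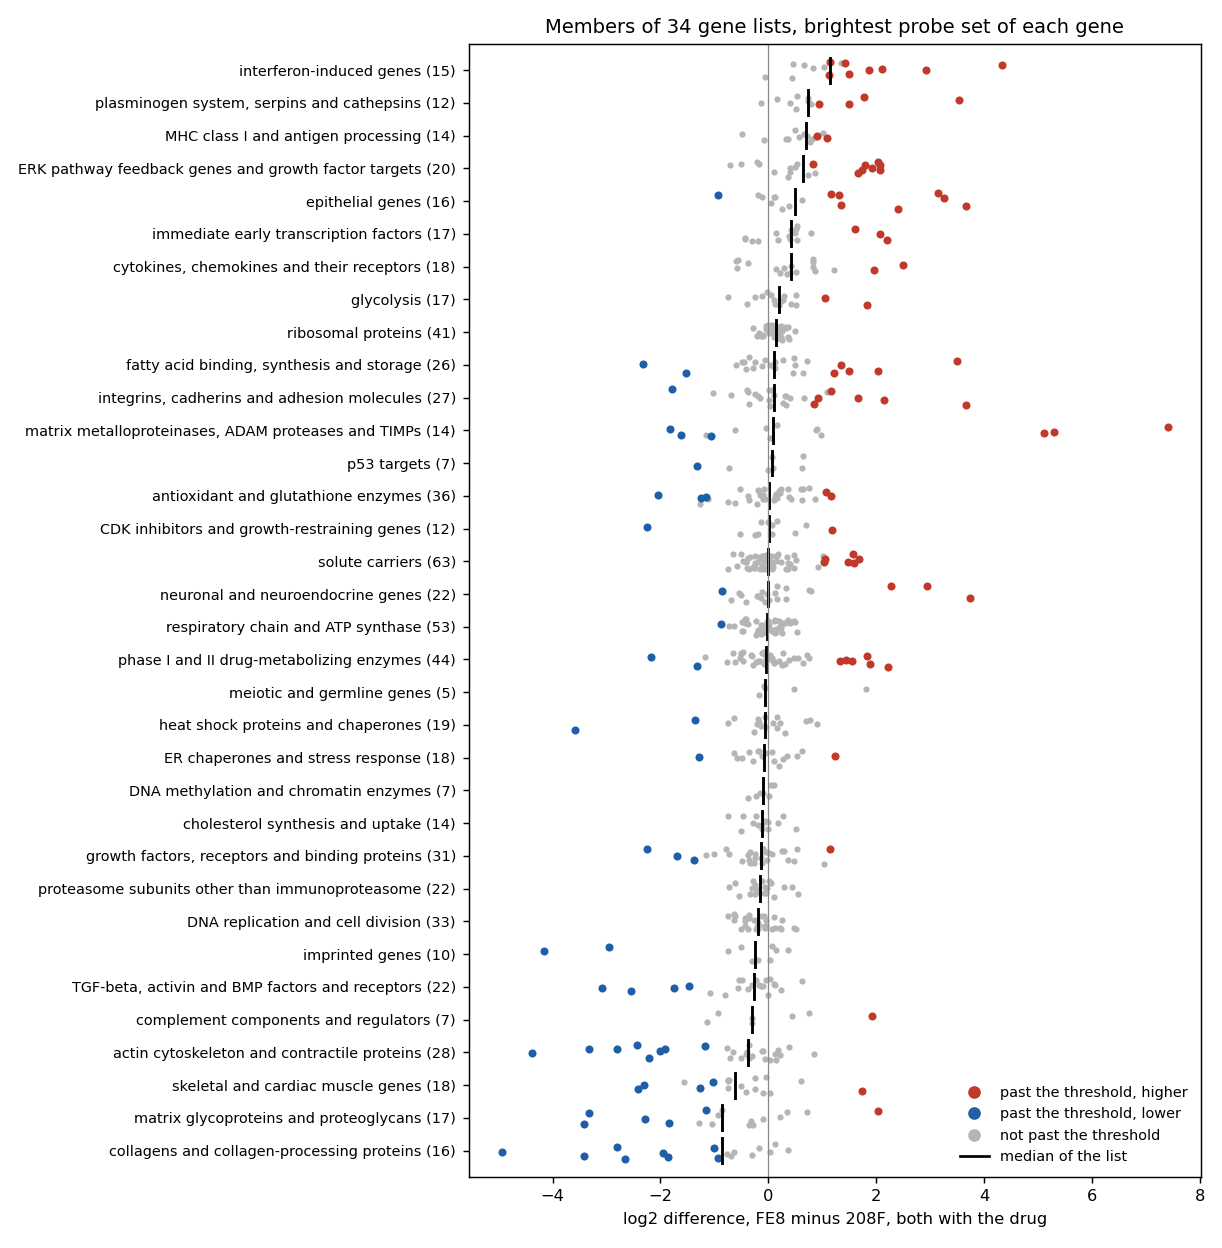
Log2 difference of FE8 over 208F under the drug for every measured member of 34 gene lists (numbers of members in parentheses), each point a gene by its brightest probe set, red or blue where it passed the threshold, with a bar at the list median. The bar of interferon-induced genes lies at 1.14 and those of collagens and of matrix glycoproteins at -0.85, the last moving to -0.36 when dimmer probe sets are left out, while ribosomal proteins and proteasome subunits lie close to 0 with no coloured point.

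Most differences under the drug had the same sign without it. Of the 341 probe sets 311 did, 144 of 165 higher and 167 of 176 lower ones, and 87 and 122 of them differed by at least 1 on the untreated arrays, which are separate from the treated ones. The rest include Plek, Plin2, Aqp8, Fabp5, Egr1 and Nppb, given above. The same shares over all 4818 probe sets are not given, so no excess over them is claimed. The test of the change of the line difference passed at 3 of 4818 probe sets (0.0623%), those of Ptprn, Plin2 and Ocm. Oncomodulin (Ocm), a calcium-binding protein, had 3518 and 2490 in treated 208F and 4030 and 4291 in treated FE8, and 74 and 1699 untreated, so its line difference of 3.68 was reduced to 0.48 (change -3.19 ± 0.41, adjusted p = 0.038). At an unadjusted p under 0.05 there were 364 such probe sets. With either FE8 array left out, at a mean treated signal of at least 200, after quantile normalization, without the intensity trend and with the replicate number as a block, 0 probe sets passed this test. The untreated lines had 1 array each, so this test borrows its spread from the treated duplicates. In it the drug cannot be told apart from the chip lot and the scan day.

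**Figure D5:**
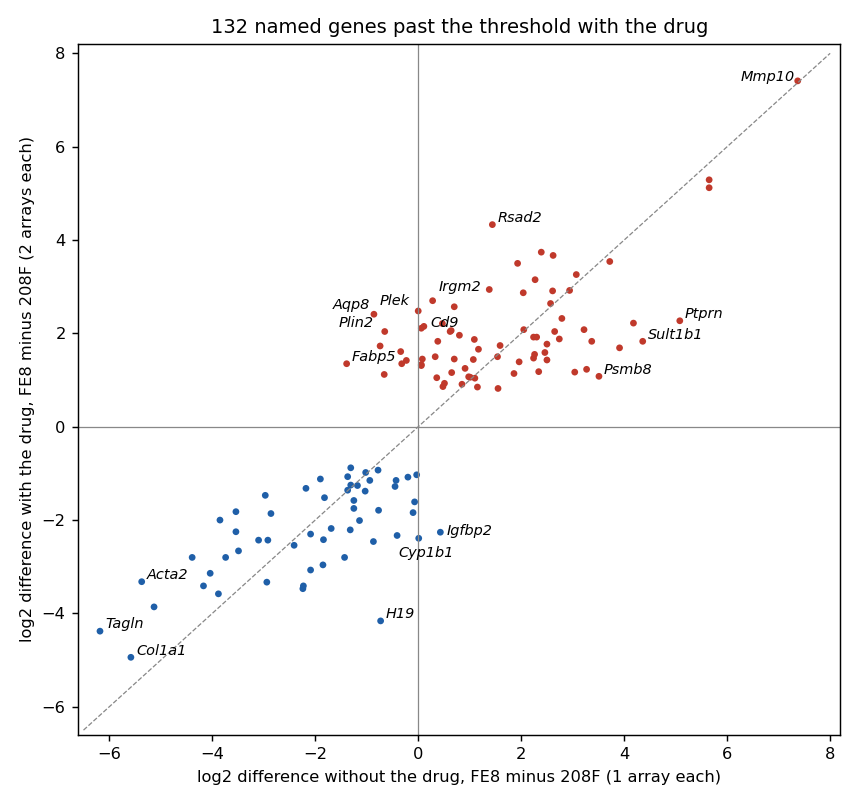
Line difference with the drug against line difference without it, both log2 of FE8 over 208F, for the 132 named genes past the threshold under the drug, red where higher and blue where lower, with the dashed line marking equal differences. Mmp10 (7.41 and 7.37) lies on the line, Rsad2 (4.33 and 1.44) and H19 (-4.16 and -0.73) lie away from 0 mainly on the vertical axis, and Ptprn (2.27 and 5.08) lies below the line.

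In RefSeq's gene order 480 pairs of neighbours were both measured, and in 7 pairs (1.46%) both genes passed, each time in the same direction. Of all genes, 8.24% passed by the probe set with the smallest p, the one used here. This is a share of single genes and cannot be set directly against a share of pairs. The share among pairs drawn at random was not computed. Some of these pairs are gene copies or members of a list above. The higher pairs were Hsd11b1 with G0s2, Sult1b1 with Ugt2a1, Abcb1b with Abcb1a, Cript with Pigf and Psmb8 with Tap1, and the lower pairs Ccn1 with Ddah1 and Col3a1 with Col5a2. Sult1b1, a sulfotransferase, had 12 and 4 in 208F and 110 and 314 in FE8 (1.83 ± 0.39), and its neighbour Ugt2a1, a glucuronosyltransferase, 83 and 51 against 431 and 397 (1.88 ± 0.31). Ddah1, which degrades inhibitors of nitric oxide synthase, had 1320 and 1204 against 133 and 63 (-3.07 ± 0.31), beside the values of Ccn1 given above.

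The calls depended on which array was left out. Such a fit takes its spread from the other line's duplicates, so its counts also follow that spread. Without 1 FE8 array the number of probe sets past the threshold was 136 (replicate 1 left out) or 96 (replicate 2 left out), and without 1 208F array it was 491 or 530. Of the 40 genes with the largest differences, 39 passed in every one of these fits and Irgm2 did not. Of all 132 named genes past the threshold, 61 did not pass without FE8 replicate 1 and 80 without FE8 replicate 2, while none turned its direction. In the comparison within a single lot and scan day, without 208F replicate 1, none of the 132 turned its direction. That fit takes its spread from the FE8 duplicates alone, so its calls cannot show whether lot or scan day had a part. This was not tested.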

How the data were processed

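Total RNA of 6 samples of rat fibroblasts was hybridised to the Affymetrix chip. The deposited values are MAS5 signal intensities on a linear scale, in whole numbers, per the submitters' processing notes and the values; version, scaling target and the filter behind the 4847 listed probe sets are not given in the sources used here. Array means of 1258 to 1389.5 show that the table was scaled, and no further normalization was applied. After removal of 29 control probe sets, 4818 were tested. Names came from the platform annotation and RefSeq: 3956 probe sets had 1 gene, 207 several and 655 none, and 3942 were matched by gene identifier.

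Signals were taken as log2(value + 64), 64 being the 10th percentile of all signals. A model of 4 group means over all 6 arrays was fitted in R 4.3.3 by limma 3.58.1 (eBayes with intensity trend, 2 residual and 9.017 prior degrees of freedom). Tests were 2-sided, with Benjamini-Hochberg adjustment over 4818 probe sets and a threshold of 0.05. The untreated arrays were assumed to vary like the duplicates. The number of arrays limits the precision.

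Named genes, 1 probe set each (smallest p), were the 20 largest higher and 20 largest lower ones past the threshold with arrays separated by line, up to 6 members past it per list and direction, up to 4 others per list, and Clu and Dnmt1; Oas1a, Lgals9, Serpinh1, Pcolce, Irf1, Snap25, Syp and the genes given for a promoter match or a neighbour only were named after their values were seen. Of 18 of the 40 with several probe sets, 1 had another in the opposite direction. The comparison, the 34 lists and the rules were chosen with earlier results of these data known. Promoter windows were the 250 bases before the start. Alternatives were other pseudocounts, filters, scalings, probe set classes, models and arrays left out. No per-sample column of values was left unused (0 columns). A settings record of a second scan of FE8 replicate 2 came with no second set of values.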

Additional observations from a re-analysis of the deposited data

Results flagged for a closer look

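The line difference changed with the drug, by a test of the change itself in limma, for 3 genes. Ptprn had a change of -2.80 ± 0.39 (adjusted p = 0.038), Ocm of -3.19 ± 0.41 (adjusted p = 0.038) and Plin2 of 2.69 ± 0.39 (adjusted p = 0.038). The untreated side of each rests on 1 array per line. Without FE8 replicates 1 and 2 the change was -2.83 and -2.77 for Ptprn, -3.15 and -3.24 for Ocm, and 2.72 and 2.66 for Plin2. Without FE8 replicate 1 the adjusted p of each was 0.45 and without FE8 replicate 2 it was 0.48, and none of the 3 passed with the signal filter (0.079 each), after quantile normalization (0.11 each), without the intensity trend (0.1 each) or with the replicate block (0.13 each).

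Aqp8 was higher in FE8 with the drug (2.41 ± 0.31), with both FE8 arrays above both 208F arrays, as for every higher probe set that passed. Without the drug the line difference was -0.86, from 1 array per line with dim signals of 85 in 208F and 18 in FE8. A single array per line gives no spread of its own, so a reversal of direction was not established. The change missed the threshold (adjusted p = 0.055).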

How the results depend on the processing

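Against 341 probe sets past the threshold, the count was 319 and 338 with a smaller and a larger pseudocount, 258 with a mean treated signal of at least 200, 322 after quantile normalization, 338 after median centring, 294 without the intensity trend, 346 on the treated arrays alone and 226 of 3228 without suffixed probe sets. Leaving out 1 array gave 96 to 530. The share higher in FE8 was 48.4%, and 37.5% without FE8 replicate 2. Against 2029 separated probe sets, 1296 remained without suffixed ones, and leaving out 1 array, which eases the condition, gave 3312 to 3536.

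The 3 calls of the change were the least stable. There were 10 and 6 with the smaller and the larger pseudocount, 9 after median centring, 13 without suffixed probe sets, 0 with the signal filter, after quantile normalization and without the trend, and 0 to 206 with 1 array left out; the cause was not tested. In limma 364 stood at an unadjusted p under 0.05 in the full design.

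Treated arrays share replicate numbers 1 and 2. With the replicate block 325 line calls and 0 change calls were found, and 11 of 132 named calls did not pass. Deviations of same-numbered arrays correlated at 0.319 over 2 pairs, which do not establish pairing.

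None of the 132 named calls turned direction in any setting; 52 passed in all. Arrays give no counts, and signals near 64 limit the size of differences of dim genes.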
